A study of Sus scrofa with 4 samples.

Results

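Genes for secreted or membrane-bound WNT antagonists were followed in sorted pig epidermis. These 10 genes, DKK1, DKK2, DKK3, SFRP1, SFRP2, SFRP5, FRZB, WIF1, SOSTDC1 and APCDD1, were taken by gene name from the 29837 named genes of the count table, by a rule that holds names and no measured value, though earlier results of these data were known when the names were chosen. Juvenile pigs carried H2B-GFP, a histone joined to green fluorescent protein, knocked into the first exon of a single LGR5 allele, and the LGR5-negative cells carried the same allele. The line was made by nuclear transfer from edited colonies of fetal fibroblasts, and whether the sequenced pigs were founders or offspring is not given in the sources used here. Epidermis and hair were separated from dermis with dispase, and live cells were sorted by GFP into the LGR5-high population (labelled LGR5-GFP+) and the LGR5-negative population (LGR5-GFP-). The study also sorted GFP-low cells, of which no library is in these data. Poly(A) RNA was sequenced from both populations of 2 pigs, 88R and 95R, which gave 4 libraries, with between 30696803 and 32463362 counts on named genes each. The question was which genes differed between cells with and without LGR5 expression. Where values of both pigs are given without a name, pig 88R comes before pig 95R.

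WNT proteins are secreted, lipid-modified signals that bind Frizzled receptors together with the coreceptors LRP5 and LRP6, which stabilises beta-catenin and turns on genes through TCF and LEF factors. The antagonists act outside the cell at separate points. Secreted Frizzled-related proteins (the SFRP genes and FRZB) and WIF1 bind the WNT ligand itself. The Dickkopf proteins DKK1 and DKK2 and SOSTDC1 bind the coreceptors, DKK3 is a divergent Dickkopf protein, and APCDD1 is a membrane glycoprotein that binds WNT and LRP5. In hair follicles, WNT signalling drives placode formation and the entry into growth, and antagonists have been described in the resting bulge of mouse follicles.

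LGR5 itself, the gene that drove the reporter, reached 4551 and 6224 counts in LGR5-high cells and 36 and 109 in LGR5-negative cells. Scaled with TMM factors to CPM, the counts of a gene for each 1e+06 counts of a library, its LGR5-negative level was 1.26 and 3.61, a ratio of 2.86 between the pigs. The lists of other cells were checked as well, and of all tested genes 22.7% were higher in LGR5-high and 22.0% lower. Genes of the lower follicle sheath were high in LGR5-high, with 8 of 9 tested genes higher and none lower. LGR5, whose reporter defined the sort, is counted among the 8. The summed level was 2993 and 3113 CPM against 219 and 287 CPM, with KRT6A at 1681 and 1861 CPM in LGR5-high. Suprabasal keratinocyte genes fell in 6 of 8, with 6649 and 6060 CPM in LGR5-high against 66568 and 57476 CPM. Of the basal keratinocyte list, 4 of 7 genes were lower and none higher, KRT15 passed as higher with the pig as a replicate block (adjusted p = 2.13e-06, edgeR), and KRT5 had between 789559 and 842315 counts in every library. With bulk RNA, fewer cells of a type and less RNA per cell cannot be told apart.

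Of the antagonist genes, 6 were higher in LGR5-high cells and SFRP5 was lower. DKK3 and WIF1 showed the largest increases among the 9 tested genes, with fitted folds of 63.1 and 43.7, followed by DKK2 with 17.0 and SFRP1 with 11.8. SOSTDC1 and APCDD1 rose less, by 2.90-fold and 1.37-fold. SFRP5 was 5.89-fold lower. SFRP2 and FRZB did not pass the test, and DKK1 was too low to be tested. In counts, 6 of 9 tested members were higher and 1 was lower at an adjusted p under 0.05 (edgeR's quasi-likelihood test, Benjamini-Hochberg adjustment over 15980 genes). Of all tested genes, 22.7% were higher and 22.0% were lower under the same rule. The median log2 fold change of the 9 members was 1.74, the value of SFRP2, beside 0.02 for all tested genes. A member reached the test only if enough counts were present in at least 1 population, so these numbers do not describe all 10. SFRP2 and WIF1 had under 10 counts in an LGR5-negative library and entered through their LGR5-high counts. With at least 10 counts required in every library they were not tested, and 5 members were higher and 1 lower.

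**Figure D1:**
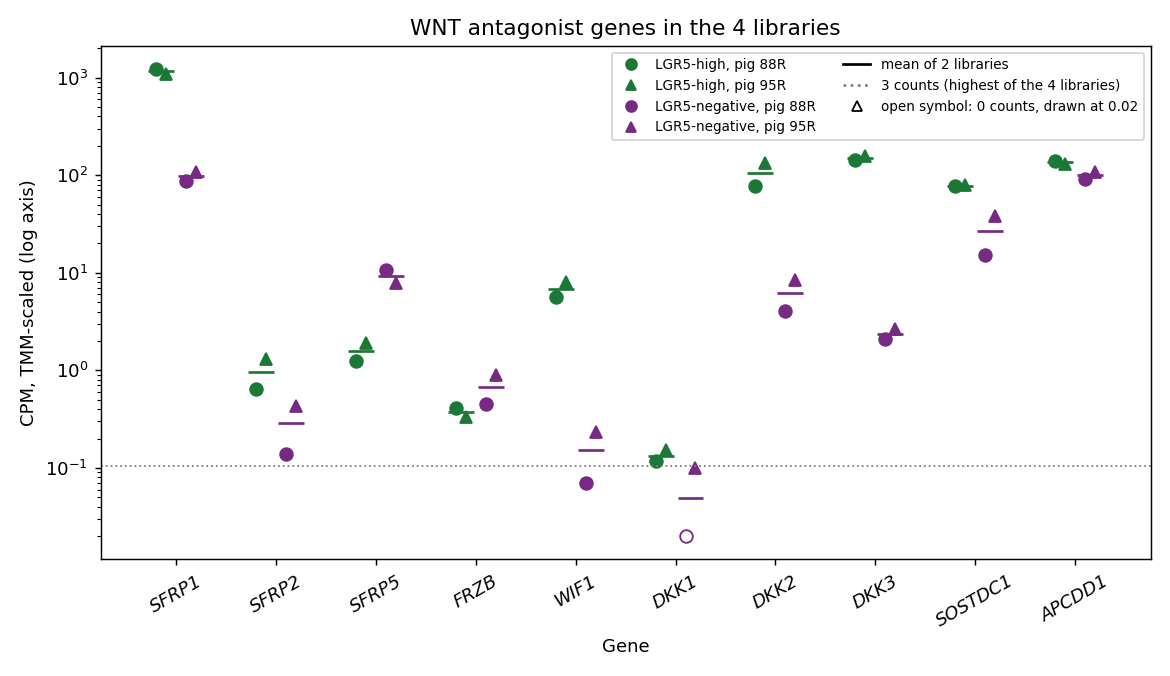
TMM-scaled CPM (log axis) of the 10 WNT antagonist genes in each of the 4 libraries, with LGR5-high in green, LGR5-negative in purple, circles for pig 88R, triangles for pig 95R and a line at the mean of each population. SFRP1 lies at 1217 and 1094 CPM in the LGR5-high libraries, SFRP5 and FRZB lie lower in LGR5-high than in LGR5-negative, and DKK1 lies near the dotted line of 3 counts.

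Together the 10 genes held 57098 and 53143 counts in LGR5-high cells against 6034 and 8290 in LGR5-negative cells. That was 1661 and 1609 CPM against 212 and 274 CPM. SFRP1 took most of these reads in LGR5-high, but not in LGR5-negative. Its share of the reads on the 10 genes was 73.2% and 68.0% in LGR5-high, and 41.1% and 39.3% in LGR5-negative. Without SFRP1, the other 9 genes summed to 444 and 515 CPM against 125 and 166 CPM. These are shares of reads, which also depend on transcript length, and levels were not ranked between genes.

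SFRP1, which binds WNT ligands and keeps them from Frizzled receptors, reached 41823 and 36129 counts in LGR5-high cells and 2480 and 3261 in LGR5-negative cells. In CPM this was 1217 and 1094 in LGR5-high, and 87.0 and 108 in LGR5-negative. The populations did not overlap, and the gap between them was far wider than that between the pigs. Mean levels were 1155 ± 86.9 CPM for LGR5-high and 97.5 ± 14.8 CPM for LGR5-negative (SD, n = 2 pigs). On the log2 scale SFRP1 rose by 3.57 (standard error 0.14, adjusted p = 6.62e-05 by the quasi-likelihood test of edgeR), 3.80 in pig 88R and 3.34 in pig 95R.

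SFRP5, the close relative of SFRP1, went the other way. It reached 43 and 63 counts in LGR5-high cells and 304 and 240 in LGR5-negative cells. The levels were 1.25 and 1.91 CPM against 10.7 and 7.94 CPM, with no overlap. The fitted log2 difference of SFRP5 was -2.56 (standard error 0.30, adjusted p = 0.00143 by the quasi-likelihood test of edgeR). Pig 88R gave -3.03 and pig 95R gave -2.02. Means were 1.58 ± 0.464 CPM for LGR5-high and 9.30 ± 1.93 CPM for LGR5-negative (SD, n = 2 pigs).

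SFRP2 is a further WNT-binding member of the family and is widely used as a marker of dermal fibroblasts. It reached 22 and 43 counts in LGR5-high cells and 4 and 13 in LGR5-negative cells. Each LGR5-high value, 0.640 and 1.30 CPM, was above both LGR5-negative values, 0.140 and 0.430 CPM. The log2 fold change of 1.74 (standard error 0.64) missed the threshold (adjusted p = 0.0732, quasi-likelihood test of edgeR). Once the pig was added as a replicate block, the value was 1.78 with an adjusted p of 0.00503 in edgeR, so SFRP2 passed there, whereas DESeq2 with the same block gave an adjusted p of 0.166. It passed also without the LGR5-negative library of pig 95R, with 2.74 (adjusted p = 0.04, edgeR), and with scaling by library size alone (adjusted p = 0.0474, edgeR), whereas leaving out each other library gave between 1.15 and 2.16 with no call.

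FRZB, also known as SFRP3, reached 14 and 11 counts in LGR5-high cells and 13 and 27 in LGR5-negative cells. In CPM the values were 0.407 and 0.333 against 0.456 and 0.893. The values of 3 libraries thus lay close together, and the LGR5-negative library of pig 95R lay above them. The log2 fold change of -0.86 (standard error 0.49) did not pass, with an adjusted p of 0.20 by the quasi-likelihood test of edgeR. Without the LGR5-negative library of pig 95R it was -0.31 (adjusted p = 0.743, edgeR). The populations did not overlap with TMM scaling but did with library size only, and a difference was not detectable at this depth.

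WIF1, which binds WNT ligands through a domain of its own, reached 194 and 266 counts in LGR5-high cells but 2 and 7 in LGR5-negative cells. That was 5.64 and 8.05 CPM against 0.0702 and 0.232 CPM, and the first LGR5-negative value was below the floor of 3 counts, which lay between 0.0873 and 0.105 CPM. The ratio within pig 88R was 80.4, with a 95% interval from counting error of 22.0 to 669. In pig 95R it was 34.8, with an interval of 16.6 to 87.3, so the size of the ratio was loosely fixed by so few counts. On the log2 scale the fitted rise of WIF1 was 5.45 (standard error 0.48, adjusted p = 5.79e-04 by the quasi-likelihood test of edgeR). Dropping any single library kept it between 4.86 and 6.52, the lowest without the LGR5-negative library of pig 88R and the highest without that of pig 95R.

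DKK3, the most divergent Dickkopf gene, whose action on WNT signalling is debated, reached 4877 and 5192 counts in LGR5-high cells and 59 and 80 in LGR5-negative cells. The levels were 142 and 157 CPM against 2.07 and 2.65 CPM. Both pigs gave nearly the same picture, pig 88R giving 6.06 and pig 95R 5.86 on the log2 scale. The rise over both pigs was fitted at 5.98 (standard error 0.15, adjusted p = 3.91e-05 by the quasi-likelihood test of edgeR). Among all 15980 tested genes, DKK3 held rank 114 by the size of its increase and rank 10 by p-value among genes with a positive change.

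DKK2, a Dickkopf protein that binds LRP6, reached 2640 and 4453 counts in LGR5-high cells and 115 and 253 in LGR5-negative cells. In CPM this was 76.8 and 135 against 4.04 and 8.37. Pig 95R had the higher level in both populations, 1.76 times that of pig 88R in LGR5-high and 2.07 times in LGR5-negative. The change was therefore more alike between the pigs than the levels were, pig 88R giving 4.23 and pig 95R 4.00. Fitted over both pigs, DKK2 rose on the log2 scale by 4.09 (standard error 0.42, adjusted p = 9.78e-04 by the quasi-likelihood test of edgeR). With the replicate block it was 4.11, and its standard error was 0.12. Leaving out each library in turn gave between 3.63 and 4.70, the highest without the LGR5-negative library of pig 95R.

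DKK1, the best known secreted inhibitor of LRP6, reached 4 and 5 counts in LGR5-high cells and 0 and 3 in LGR5-negative cells. It was left out by the filter on low counts. In pig 95R the ratio of LGR5-high to LGR5-negative was 1.52, with a 95% interval from counting error of 0.297 to 9.82. With all genes of at least 1 count tested, the fitted value of DKK1 was 1.32 on the log2 scale (standard error 1.23, adjusted p = 0.479, edgeR). No difference of DKK1 was detectable at this depth, in either direction.

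SOSTDC1, known as wise or ectodin, is a secreted antagonist of both WNT and BMP signals. It reached 2634 and 2632 counts in LGR5-high cells and 438 and 1160 in LGR5-negative cells. The LGR5-high levels were nearly equal, at 76.6 and 79.7 CPM, whereas the LGR5-negative levels, 15.4 and 38.4 CPM, differed by 2.5 times between the pigs. SOSTDC1 rose by a fitted log2 value of 1.54 (standard error 0.39, adjusted p = 0.0233 by the quasi-likelihood test of edgeR). Pig 88R gave 2.31 and pig 95R gave 1.05, and there is no replicate within a pig to test that difference. Without the LGR5-negative library of pig 95R the log2 fold change was 2.34, and without that of pig 88R it was 1.02. Leaving out the LGR5-high library of pig 88R or 95R ended the call, with an adjusted p of 0.0664 and 0.0828 (edgeR).

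APCDD1, a membrane-bound inhibitor and a known WNT target gene, had the smallest change that passed. It reached 4847 and 4349 counts in LGR5-high cells and 2619 and 3246 in LGR5-negative cells. In CPM this was 141 and 132 against 91.9 and 107. The populations did not overlap, and the change was small beside those of SFRP1, DKK2, DKK3 and WIF1. APCDD1 rose on the log2 scale by 0.45 (standard error 0.10, adjusted p = 0.0157 by the quasi-likelihood test of edgeR), 0.62 in pig 88R and 0.29 in pig 95R. Without the LGR5-high library of pig 88R the adjusted p was 0.0751, and without the LGR5-negative library of the same pig it was 0.0653 (edgeR), so the call ended in both cases.

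**Figure D2:**
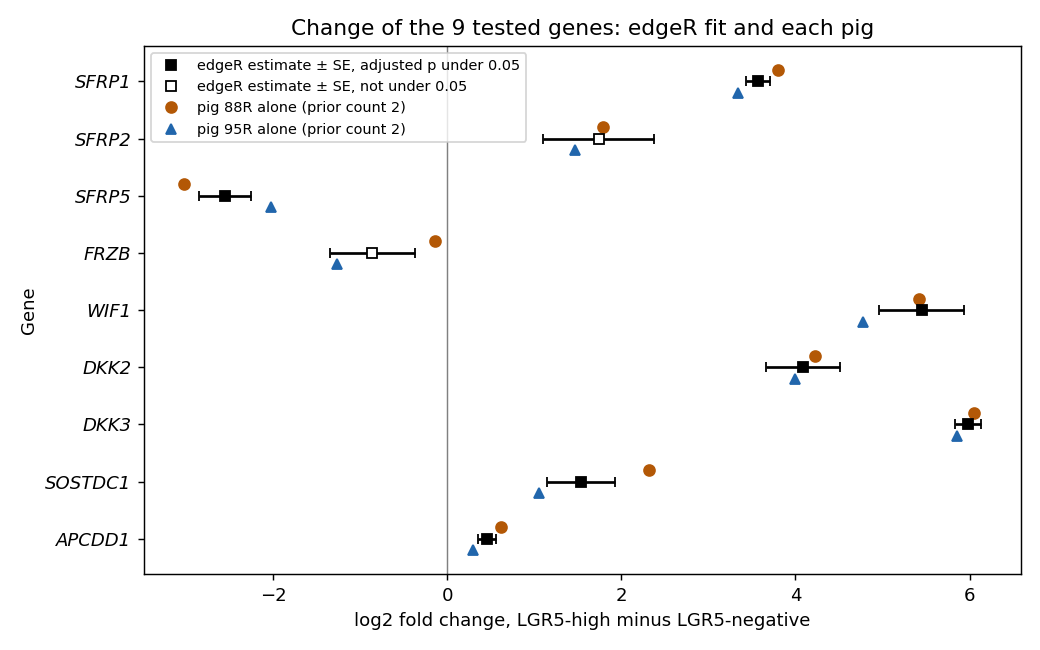
Log2 fold change (LGR5-high minus LGR5-negative) of the 9 tested genes, with squares for the edgeR estimate ± standard error from all 4 libraries (filled where the adjusted p was under 0.05), circles for pig 88R alone and triangles for pig 95R alone. The pigs lie on the same side of 0 for every gene shown, from DKK3 at 5.98 to SFRP5 at -2.56, and SOSTDC1 shows 2.31 in pig 88R against 1.05 in pig 95R.

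Both LGR5-high libraries lay above both LGR5-negative libraries for 8 of the 10 members, the untested DKK1 included, and below them for SFRP5 and FRZB, beside 39.2% and 37.4% of all tested genes. The sign was the same in both pigs for all 10, beside 85.8% of all tested genes. The change was larger in the positive direction in pig 88R than in pig 95R for 8 of the 9 tested members, the exception being SFRP5, beside 51.7% of all tested genes. The LGR5-negative library of pig 95R was above that of pig 88R for the same number of members, 8 of 9, beside 52.4% of all tested genes. The ratio was 3.30 for WIF1, 3.06 for SFRP2, 2.5 for SOSTDC1 and 2.07 for DKK2. For DKK3, SFRP1 and APCDD1 it was 1.28, 1.24 and 1.17. LGR5 had a ratio of 2.86 in the same libraries, and the summed lower follicle sheath genes were at 287 CPM in pig 95R and 219 CPM in pig 88R. Within that sum, KRT6A had 67.1 CPM in pig 88R and 111 CPM in pig 95R, and NFATC1 had 85.6 and 102 CPM. SOX9, LHX2 and CD200 were also higher in pig 95R, whereas TCF7L1, GLI1 and PTCH1 were lower there. Melanocyte genes summed to 264 CPM in the LGR5-negative library of pig 95R, to 86.7 CPM in that of pig 88R, and to 64.5 and 64.2 CPM in LGR5-high. The part of these values in the results was not tested.

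Several members are also known from dermal cells, so the markers of those cells are given beside them. Over all tested genes, 22.7% were higher and 22.0% lower. Of 11 tested dermal fibroblast genes, 3 were higher and 7 lower in LGR5-high, with a summed level of 749 and 1025 CPM in LGR5-high and 463 and 322 CPM in LGR5-negative. The 3 higher genes were COL1A1, COL1A2 and FBN1. PDGFRA had 4 and 3 counts in LGR5-high against 21 and 21 in LGR5-negative, and LUM had 5 and 0 against 47 and 31. Of the dermal papilla list without WIF1, 5 of 7 tested genes were higher and none lower, with 102 and 86.2 CPM against 36.9 and 34.9 CPM. Most of that sum came from PTCH1, with 75.4 and 66.1 CPM in LGR5-high and 27.0 and 25.2 CPM in LGR5-negative. PTCH1 is also in the lower follicle sheath list. The higher ones were HHIP, with 96 and 116 counts against 10 and 13, and TBX18, HEY1, PTCH1 and VCAN, which rose by 2.86, 1.54, 1.44 and 1.14 on the log2 scale. TBX18 had only 22 and 13 counts against 0 and 4, with a standard error of 0.92 and an adjusted p of 0.049 (edgeR). CORIN with 0.02 and ALPL with 0.55 did not pass. The 4 untested genes of the list, SOX2, RSPO3, PROM1 and ALX4, had few counts, with 3 and 5 counts of SOX2 in LGR5-high and 0 and 0 in LGR5-negative, and 1 and 1 counts of RSPO3 in LGR5-high against 6 and 13 in LGR5-negative. Endothelial genes were lower in 5 of 7 and leukocyte genes in 4 of 6 tested, with none higher. Other lists rose in part. Of the smooth muscle and pericyte list, 4 of 6 tested genes were higher, among them CNN1 with 3.70 and ACTA2 with 2.08, and 1 was lower. The lower gene was NOTCH3, with 369 and 383 CPM in LGR5-high against 551 and 646 CPM. CNN1 had 4.83 and 4.57 CPM in LGR5-high. The list summed to 403 and 414 CPM in LGR5-high against 568 and 664 CPM, most of it from NOTCH3. Of the nerve and Schwann list, 3 of 6 were higher and 2 lower, among them NCAM1 with 5.77 and NGFR with 4.74 against SOX10 with -2.69. That list summed to 266 and 253 CPM in LGR5-high against 335 and 330 CPM. Most of the sum came from ERBB3, the other lower gene, with -0.81. Of the inner root sheath and matrix list, 5 of 7 were higher and 1 lower, with 1604 and 1279 CPM against 642 and 682 CPM. The part of these cells in the members' values was not tested.

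The count table held 4 further genes of the same name families, DKK4, DKKL1, SFRP4 and APCDD1L. DKK4, a Dickkopf gene known as a WNT target in placodes, had 45 and 85 counts in LGR5-high and 4 and 4 in LGR5-negative, and rose by 3.79 on the log2 scale (standard error 0.54, adjusted p = 0.0032, edgeR). DKKL1 rose by 1.01 (standard error 0.14). SFRP4 and APCDD1L had at most 8 counts in any library and were not tested. All 4 genes are also part of the list of other antagonists that follows, so their calls are counted there again.

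Other genes listed as extracellular or membrane-bound antagonists and regulators moved mostly in the same direction. Of 22 such genes, 16 were tested, and 11 were higher and 3 lower, with a median log2 fold change of 1.74. These calls are 68.75% and 18.75%, beside 22.7% and 22.0% of all tested genes. With at least 10 counts required in every library, 7 were higher. DKK4, AMBP, DRAXIN and SOST were not tested there, because each had under 10 counts in an LGR5-negative library. The largest increases were those of IGFBP4, which binds insulin-like growth factors and LRP6, with 4.04, AMBP with 4.01, TRABD2B, a protease that cleaves WNT ligands, with 3.80, and DKK4. AMBP had 31 and 83 counts in LGR5-high and 3 and 3 in LGR5-negative. It encodes a plasma protease inhibitor precursor whose place among WNT antagonists is doubtful. ROR2, with 3.64, was counted in this list, whereas ROR1 was counted with the receptors. NOTUM, the enzyme that removes the lipid from WNT ligands, rose by 2.5 on the log2 scale, with 126 and 153 counts in LGR5-high and 15 and 28 in LGR5-negative. The lower genes were GPC3 with -1.07, KREMEN1, a receptor for Dickkopf proteins, with -0.62, and TPBG with -0.39. KREMEN2, the other Dickkopf receptor, had -0.60 and did not pass (adjusted p = 0.0906, edgeR), but passed as lower with the replicate block (adjusted p = 0.0086, edgeR).

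Genes for WNT ligands and their secretion were lower more often than higher. Of 16 tested genes for WNT ligands and their secretion, 4 were higher and 9 lower, with a median log2 fold change of -0.62. These calls are 25% and 56.25%, beside 22.7% and 22.0% of all tested genes, so the higher share was near that of all genes. WNT3 fell by 3.68 on the log2 scale, WNT16 by 3.40, WNT7B by 3.19 and WNT7A by 2.53. WNT11 was the exception in size, with 2462 and 3388 counts in LGR5-high against 26 and 31 in LGR5-negative and a log2 fold change of 6.48, followed by WNT5A with 1.89, WNT9A with 0.68 and WNT6 with 0.54. Without the LGR5-high library of pig 88R, 2 ligands were higher.

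Of 21 tested receptors and agonists, 13 were higher and 4 lower, or 61.9% and 19.0%, with a median of 0.88. The shares over all tested genes were 22.7% and 22.0%, so the lower share was near that of all genes. Beside LGR5, whose reporter defined the sort, the largest increases were those of RSPO1 with 3.75, ROR1 with 3.72 and the Frizzled receptor FZD1 with 3.65. RSPO1 had 14 and 51 counts in LGR5-high and 4 and 0 in LGR5-negative, so this value rested on few reads. The lower genes were LRP4, a receptor that binds SOSTDC1, with -2.33, FZD9 with -1.91, FZD4 with -1.44 and FZD10 with -1.07. Of the coreceptors of the Dickkopf proteins, LRP6 had a log2 fold change of 0.47 (adjusted p = 0.01, edgeR) and LRP5 one of 0.19, which did not pass (adjusted p = 0.0807, edgeR).

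Of 31 tested intracellular genes, 8 were higher and 9 lower, or 25.8% and 29.0%, near the 22.7% and 22.0% of all tested genes. Their median was -0.04, and when scaled by library size alone 13 were higher and 5 lower. The higher genes were led by the TCF factors TCF7L1 with 2.80, TCF7 with 2.78 and TCF7L2 with 2.73, and by DACT2 with 2.28. TLE4 and AMER1 fell by 0.94 each, CTNNBIP1, an inhibitor of beta-catenin, by 0.83 and the corepressor TLE3 by 0.82. The 16 tested feedback target genes share LGR5, DKK4, NOTUM, LEF1, TCF7, ZNRF3 and RNF43 with the lists above. Of these 16, 8 were higher and 3 lower, or 50% and 18.75%, with a median of 0.54. The lower share was near that of all tested genes. The higher ones were LGR5, DKK4, TCF7, NOTUM, EDAR with 2.38, NKD2 with 2.27, ZNRF3 with 0.73 and LEF1 with 0.62. The lower ones were MYC with -1.80, CCND1 with -0.73 and AXIN2, often read as a measure of WNT activity, with -0.41.

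**Figure D3:**
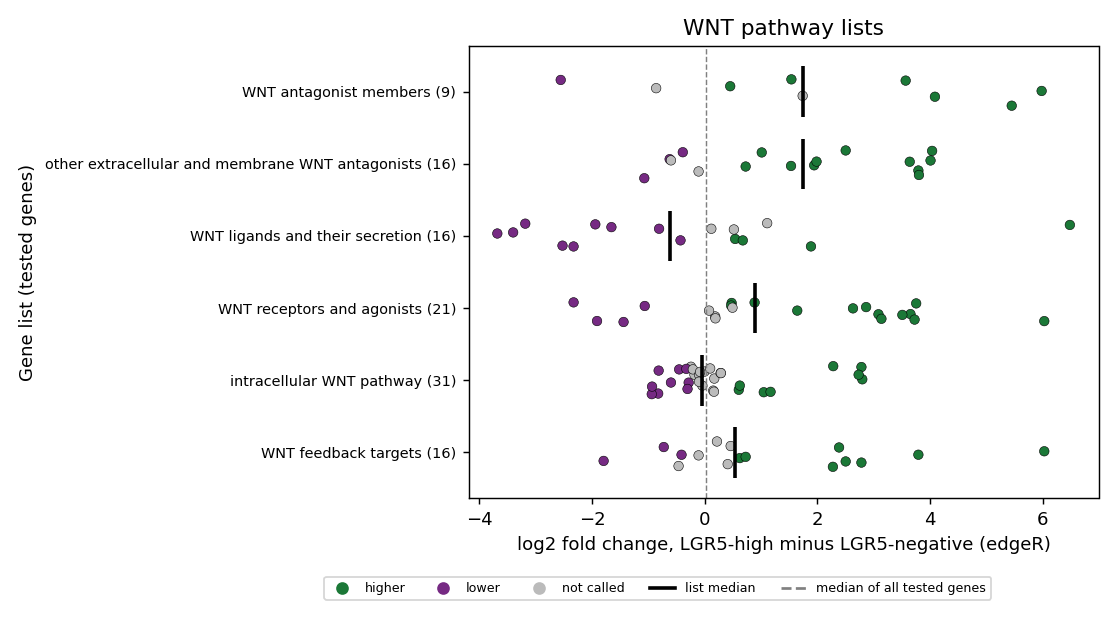
Log2 fold change (edgeR, LGR5-high minus LGR5-negative) of each tested gene of the antagonist group and of 5 lists of WNT pathway genes, coloured by call, with a bar at each list's median and a dashed line at the median of all tested genes, 0.02. The medians lie at 1.74 for both antagonist lists, at -0.62 for the ligands, 0.88 for the receptors, -0.04 for the intracellular genes and 0.54 for the feedback targets, some genes being in 2 lists.

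For the members with the most reads, the genes with the most similar pattern over the 4 libraries were sought among all tested genes, by the distance between centred log2(CPM + 1) values. For SFRP1 these were NXPH2, SAMD5 and the receptor FZD7, at distances of 0.0721, 0.0756 and 0.0975. FZD7 had 766 and 678 CPM in LGR5-high and 54.3 and 72.6 CPM in LGR5-negative. For DKK3 they were CTNND2, BGN and FNDC1, at 0.269, 0.269 and 0.281. For APCDD1 they were WNT2B, LOC110256932 and PLAA, at 0.0186, 0.0242 and 0.0274, of which the former 2 lay under 1 CPM in every library, where a pseudocount of 1 flattens any change. NXPH2 and CTNND2 lay under 1 CPM in both LGR5-negative libraries, where the pseudocount shrinks a change as well. Their fitted log2 fold changes were 4.66 and 7.25, beside 3.57 for SFRP1 and 5.98 for DKK3. A likeness over 4 libraries is a description of these libraries.

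The genes next to the members on the chromosome were read from the RefSeq annotation of Sscrofa11.1, used for names and order alone. Of the 20 nearest protein-coding neighbours, 18 were tested, 3 were higher and 7 lower, and the median log2 fold change was -0.16. The shares over all tested genes were 22.7% higher and 22.0% lower. Beside SFRP1, GOLGA7 had a log2 fold change of 0.10, and beside DKK3, MICAL2 and USP47 had 1.12 and -0.52. DKK2 lay between PAPSS1 with -0.61 and GIMD1 with -0.13. The neighbour with the largest increase was DCHS2, next to SFRP2, with 4.11. A noncoding gene overlapped DKK2, with 7 and 12 counts in LGR5-high and 1 and 0 in LGR5-negative, and another overlapped SOSTDC1, with between 9 and 27 counts, far fewer than the member had in the same libraries.

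The plot of adjusted p-values gives the result of each member under every other processing. SFRP1 and DKK3 passed under all that were run. DKK2, WIF1 and SFRP5 passed under all but the unmoderated test of each gene alone on log2(CPM + 1), the kind named in the study's methods, in which 2 of the 9 members passed, and WIF1 was not tested where 10 counts were required in every library. FRZB passed under none.

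**Figure D4:**
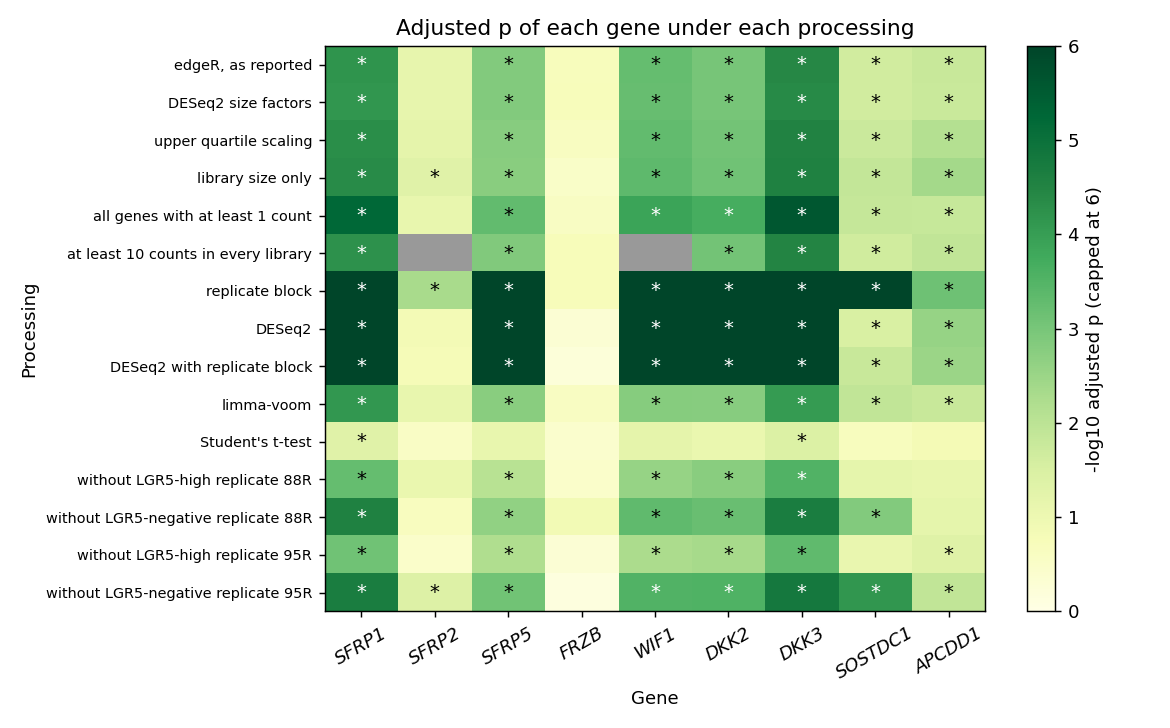
Adjusted p-value (as -log10, capped at 6) of the 9 tested genes under the reported edgeR test and 14 other ways of processing, with a star where it was under 0.05 and grey where the gene was not tested. SFRP1 and DKK3 carry a star in every row, FRZB in none, and SFRP2 in 3.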

How the data were processed

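RNA sequencing of LGR5-high and LGR5-negative epidermal cells from 2 pigs was analysed, with 1 library for each population and pig. Raw counts for each gene symbol, not normalized, were deposited by the authors. The submitters' processing notes name Trimmomatic 0.36, STAR 2.5.2b and featureCounts of Subread 1.5.2, and the genome build, annotation and strand setting are not given in the sources used here, so reads of overlapping genes may be shared. All 29837 named genes matched a RefSeq symbol of Sscrofa11.1. The 1 entry without a name, with between 0.360% and 0.626% of counts, was left out.

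Populations were compared with edgeR 4.0.16 under R 4.3.3 (filterByExpr at its minimum count, 10, and minimum total, 15; TMM scaling; 2-sided quasi-likelihood test of a model that held only the population; Benjamini-Hochberg adjustment over 15980 genes). Genes with an adjusted p under 0.05 were called higher or lower. Standard errors are the size of the log2 fold change divided by the square root of the F statistic. Fitted log2 fold changes used a prior count of 0.125, and those within a pig a prior count of 2. The floor of 3 counts and the 95% intervals (exact, Clopper-Pearson on the 2 counts of a pig) take in counting error alone, because reads copied by PCR cannot be counted as separate molecules. The libraries were paired by animal, and after the population means were taken off, libraries of 1 pig correlated across genes (r = 0.370). Each population has 2 libraries, 1 from each animal. Alternatives were DESeq2 1.42.0, limma-voom (limma 3.58.1), Student's t-test (unmoderated, each gene alone, on log2 of CPM + 1), other scalings and filters, the replicate block and leaving out each library. The tests were also run on counts simulated without an effect of the pig, which cannot show how they treat the pairing.

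The members and lists were chosen with earlier results of these data known. All members are named, and from each list up to 4 called genes with the largest change in each direction. A few others (NOTUM, KREMEN2, DKKL1, ROR2, LRP5, LRP6, feedback targets, marker genes and neighbours) were chosen after their values were seen. Levels were not compared between genes, since the lengths at hand were those of whole genes with introns, and sequences were not used here. Plots were drawn with matplotlib 3.10.9.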

Additional observations from a re-analysis of the deposited data

How the results depend on the processing

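With 6 members higher and 1 lower in the reported test, the unmoderated Student's t-test of each gene found 2 higher and 0 lower, and of the 93 tested pathway genes outside the members 12 higher and 4 lower against 38 and 28, and the cause was not tested. Every other alternative gave between 4 and 7 members higher and 1 lower. Leaving out each library in turn gave 4 to 7 higher. With the replicate block 7 members were higher and 1 lower, SFRP2 being the added one, beside 28.5% and 27.2% of all tested genes under the same fit, and the block changed no other member's call. Library size only, which shifted the median change over all tested genes from 0.02 to 0.24 (log2), called 47 pathway genes higher and 21 lower, and 5473 and 2326 of all tested genes against 3632 and 3508. Over all tested genes the unmoderated test gave 544 and 502, and leaving out the LGR5-high library of pig 88R gave 2340 and 2437, that of pig 95R 2279 and 2139. No member changed direction under any alternative run. A prior count of 2 lowered the log2 fold change of WIF1 from 5.45 to 5.00. A comparison of levels per kilobase between members was not run, as transcript lengths were not at hand. Of the pathway genes in the lists, KREMEN2, WNT2B, WNT10B and TNFRSF19 changed their call with the block, and of the marker genes KRT15, DCT, MITF, PECAM1, MCAM and LYZ. DKK1, FRZB and SFRP2 each had under 50 counts in every library, and the part of depth in their missing calls was not tested.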
